A study of Mus musculus with 8 samples.

Results

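Ifitm1, Ifitm2 and Ifitm3 are neighbouring genes on mouse chromosome 7 that form the core of the fragilis cluster. The cluster was chosen because of its measured values in control and Snf5 CKO germ cells, so its levels in that contrast are given as a description, with no test. Its members were every row of the deposited expression tables whose gene name is Ifitm1, Ifitm2 or Ifitm3. There were 3 such genes among 24631 named genes, in 4 of 24281 named rows of the female table and 3 of 23944 named rows of the male table.

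Germ cells of E15.5 gonads were sorted by the fluorescence of an Oct4-EGFP transgene and profiled by RNA-Seq, in 2 control and 2 Snf5 CKO libraries from each sex. Snf5, also called Smarcb1, is a core part of the SWI/SNF complex, which uses ATP to move nucleosomes. The CKO embryos carried a floxed and a deleted Snf5 allele (Snf5fx/Δ) with TNAP-Cre. The controls were a mixture of Snf5fx/+ and Snf5fx/Δ embryos and of Snf5fx/+ embryos with TNAP-Cre, so a deleted allele and the Cre were also present among them. TNAP-Cre is a Cre knocked into Alpl, which acts in primordial germ cells over several days and, by the study's account, does not recombine every cell. All embryos carried Oct4-EGFP. The labels give the strain as C57BL/6, whereas the methods describe a mixed background, and most samples pooled several embryos. The male CKO samples came from fewer embryos than the male controls, replicate 2 from a single embryo, so the number of embryos and the genotype cannot be told apart in males. The methods call the samples biological duplicates.

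The fragilis proteins are short membrane proteins of the cell surface and endosomes that restrict the entry of enveloped viruses into cells. Interferons induce their genes: the receptors activate JAK kinases, these activate STAT proteins, and with IRF9 the STATs bind a DNA motif called the interferon-stimulated response element. Ifitm3 is the gene named fragilis, a classic marker of cells that become primordial germ cells, and Ifitm1 and Ifitm2 are also used by germ cells.

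The targeted gene followed the labels. Smarcb1 was at 23.4 and 22.3 FPKM in the female controls and at 4.24 and 2.47 FPKM in the female CKO libraries, and at 141 and 167 against 8.73 and 10.1 FPKM in males. FPKM (fragments per kilobase of transcript, scaled to the mapped fragments of the library) corrects for transcript length and library size. The tables hold no counts, so the depth is unknown and no counting interval is given. The 2 sexes were normalized in separate runs, and values set side by side across the sexes are not tested. The named genes of a library summed to between 606784 and 1004900 FPKM. The germ cell markers Ddx4 and Dazl were present in all 8 libraries, Ddx4 between 203 and 565 FPKM and Dazl between 606 and 997 FPKM. Neither was called in either sex. Of the 8 markers of the list 3 were called higher and 3 lower in female CKO libraries, against 17.2% and 21.8% of all tested rows. In male CKO libraries 0 were called higher and 5 lower, against 14.3% and 17.5%. Mael was at 670 and 631 against 203 and 140 FPKM in females and at 992 and 1005 against 107 and 148 FPKM in males.

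In the GENCODE annotation of GRCm38, the build of the tables (mm10), the order along chromosome 7 is Ifitm5, Ifitm2, Ifitm1, Ifitm3 and Ifitm6. Ifitm2 lies on the minus strand at 140954837 to 140955987, Ifitm1 on the plus strand at 140967221 to 140969825 and Ifitm3 on the minus strand at 141009586 to 141010770. Ifitm2 and Ifitm1 are 11233 bases apart, and Ifitm1 and Ifitm3 39760 bases apart. Ifitm2 and Ifitm3 have 2 exons each, and the Ifitm1 transcripts have 2 to 3.

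The start regions of the 3 genes are shown for the interferon motif, GAAA, any 2 bases and GAAA again. It was found near the RefSeq starts of Ifitm2 and Ifitm3 and not near that of Ifitm1. Each stretch runs from 80 bases before to 29 bases after the RefSeq start (GRCm38.p6), read 5′ to 3′ on the strand of the gene. Capitals mark the motif. The stretch of Ifitm1 is chr7:140967996-140968104 on the plus strand, that of Ifitm2 chr7:140955933-140956041 on the minus strand and that of Ifitm3 chr7:141010716-141010824 on the minus strand.
Ifitm1: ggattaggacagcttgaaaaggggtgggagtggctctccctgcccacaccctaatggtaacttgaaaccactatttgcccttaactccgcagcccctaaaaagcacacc
Ifitm2: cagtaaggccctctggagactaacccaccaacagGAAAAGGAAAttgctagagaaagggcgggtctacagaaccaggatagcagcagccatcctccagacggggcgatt
Ifitm3: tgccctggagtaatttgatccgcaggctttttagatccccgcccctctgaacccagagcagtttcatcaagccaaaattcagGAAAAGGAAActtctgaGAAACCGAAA

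In the whole window of 300 bases (250 before the start), searched on both strands, Ifitm3 held 2 matches, which begin at positions 3 and 20 counted from the start base as 1. Ifitm2 held 1 match, at position -46, with the same letters as the first match of Ifitm3, and Ifitm1 held none. Such a match is present in 3.44% of 32851 RefSeq promoters of the same length. The motif TTC, any 3 bases and GAA, to which STAT dimers bind, occurred 1 time in Ifitm3, at position 14, where it overlaps the second interferon motif. It was not found in the windows of Ifitm1 and Ifitm2 and is in 8.30% of the promoters. GENCODE places the starts of all 3 genes further upstream than RefSeq. For Ifitm1 the GENCODE gene start, 140967221, lies outside the searched window, which begins at 140967826. The bases around that start were not searched for either motif. The matches are a description of letters, and no binding was measured.

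The genes are alike in sequence. Over the aligned coding bases, Ifitm1 and Ifitm2 were identical at 81.6%, Ifitm1 and Ifitm3 at 81.9% and Ifitm2 and Ifitm3 at 80.8%. The study read 75 or 100 bases from each end of a fragment. Between the 3 genes no stretch of 75 bases was shared. However, 42.0% of the 75-base stretches of the Ifitm2 transcript and 34.9% of its 100-base stretches also occur in other annotated transcripts, among them Gm8865, Gm11951 and Gm45717. For Ifitm1 and Ifitm3 the shares were 0.743% and 0.662% at 75 bases and 0 at 100 bases. The value of Ifitm2 can therefore depend on how reads that fit several places were counted, which is not given in the sources used here.

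Ifitm3, the fragilis gene itself, had the largest log2 fold change of the 3 genes in both sexes. In female germ cells it was at 16.4 and 27.3 FPKM in the controls and at 601 and 987 FPKM in the CKO libraries. The CKO values lay far above both controls, and the group means were 21.9 ± 7.72 and 794 ± 273 FPKM (SD, n = 2), a 36.3-fold difference. On the log2(FPKM + 1) scale this was 5.12 with a standard error of 0.32. Within replicate 1 the fold was 36.7 and within replicate 2 it was 36.1. The row spans 141008934 to 141015264, which is longer than the annotated gene and ends before Ifitm6.

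The female table holds another row named Ifitm3 with the same span. It was listed at 0 in both controls and was at 0.847 and 0.684 FPKM in the CKO libraries. Its mean is under the 1 FPKM that was required for the fit, so it has no fitted value and no fold is given.

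In male germ cells Ifitm3 was at 115 and 207 FPKM in the controls and at 1157 and 2067 FPKM in the CKO libraries, at 141009590 to 141010744. The groups did not overlap. The means were 161 ± 65.7 and 1612 ± 643 FPKM (SD, n = 2), a 10.0-fold difference, with a log2 difference of 3.32 and a standard error of 0.44. The folds within replicates were 10.1 and 9.97.

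Ifitm1, the only member on the plus strand, was at 51.5 and 123 FPKM in the female controls and at 865 and 1521 FPKM in the female CKO libraries. Again both CKO libraries were above both controls. The log2 difference was 3.83 with a standard error of 0.45, and the folds within replicates were 16.8 and 12.4. In males Ifitm1 was at 613 and 983 FPKM in the controls and at 1405 and 2810 FPKM in the CKO libraries, with no overlap. The male log2 difference was 1.36 with a standard error of 0.49, and without CKO replicate 2 it was 0.86.

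Ifitm2 was at 75.9 and 179 FPKM in the female controls and at 904 and 1502 FPKM in the female CKO libraries, a log2 difference of 3.31 with a standard error of 0.44. These groups did not overlap either, with folds within replicates of 11.9 and 8.40. In males it was at 775 and 1307 FPKM in the controls and at 1077 and 1859 FPKM in the CKO libraries. Here the groups overlapped, since control replicate 2 was above CKO replicate 1. The male log2 difference of 0.49 had a standard error of 0.46, and it ranged from 0.10 to 0.88 when each library was left out in turn. The fits held no replicate term, so this error and this range take in the shift between the replicates. The folds within replicates were 1.39 and 1.42. Ifitm1 and Ifitm2 share the span 140954839 to 140969828 in the male table, where they were placed in 1 locus with a value for each gene.

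Both CKO libraries were above both controls for 3 of 3 genes in females and for 2 of 3 in males. The share among all tested named rows was 36.2% in females and 34.5% in males. The members were chosen on this contrast, so nothing is read from the count.

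**Figure D1:**
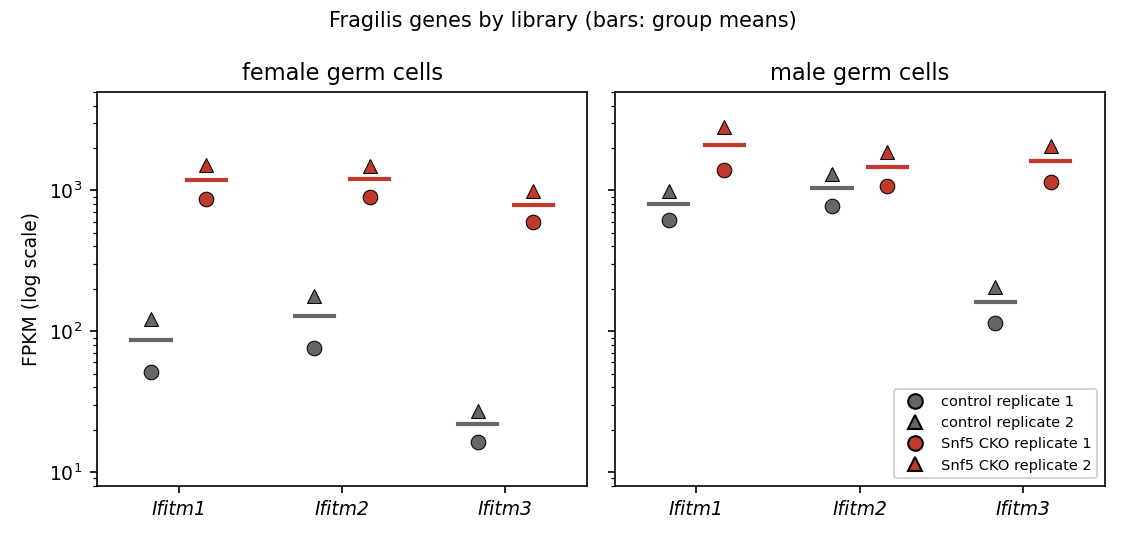
FPKM (log axis) of Ifitm1, Ifitm2 and Ifitm3 in each library of female (left) and male (right) germ cells, with controls in grey, Snf5 CKO in red, replicate 1 as circles, replicate 2 as triangles and group means (n = 2) as bars. Female control and CKO values are apart for all 3 genes, while in males only Ifitm2 overlaps, and the low female row of Ifitm3 is not drawn.

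Apart from the low female row of Ifitm3, replicate 2 was above replicate 1 for each member in each of the 4 groups. The ratio ran from 1.60, for Ifitm1 in male controls, to 2.39, for Ifitm1 in female controls. Over the tested rows the median ratio of replicate 2 to replicate 1 was 0.94 in female controls, 0.945 in female CKO, 0.974 in male controls and 0.99 in male CKO libraries. The male column names call the replicates experiments, and the sample titles name no batch. These rows of the members moved together with the replicate number in every group. What differs between the replicates was not tested.

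The deposited confidence bounds of single libraries were wide. For female Ifitm3 they ran from 0 to 35.4 and from 0.68 to 54.0 FPKM in the controls and from 139 to 1064 and from 226 to 1748 FPKM in the CKO libraries, so that none of the 4 pairs of a control and a CKO library overlapped. None overlapped for male Ifitm3 either. Of the female pairs 1 of 4 overlapped for Ifitm1 and 1 of 4 for Ifitm2, whereas in males all 4 overlapped for both genes.

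Ordered by mean, Ifitm3 was lowest in female controls, then in male controls, female CKO and male CKO cells, with no overlap between neighbours in this order. Ifitm1 and Ifitm2 followed the same order of means. However, the range of Ifitm1 in female CKO cells overlapped both that of male controls and that of male CKO cells, and for Ifitm2 the ranges of male control, female CKO and male CKO cells overlapped one another. Only the female controls stood apart for these genes. This order sets the separately normalized tables side by side.

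Among 24281 named female rows Ifitm3 was at rank 5408 and 3787 by FPKM in the controls and at rank 148 and 120 in the CKO libraries. In males all 3 genes were between rank 40 and rank 73 of 23944 in the CKO libraries, and in the controls Ifitm1 was at rank 133 and 121 and Ifitm2 at rank 101 and 85. The 3 genes together made up 0.0221% and 0.0465% of the named FPKM in female controls and 0.391% and 0.544% in female CKO libraries. In males they made up 0.235% and 0.315% against 0.556% and 0.670%.

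The mixture of the 3 genes also differed between the groups. In controls of both sexes Ifitm3 was the smallest part, with 11.4% and 8.30% of the sum in females and 7.62% and 8.30% in males. In the CKO libraries it made up 25.4% and 24.6% in females and 31.8% and 30.7% in males. Ifitm2 made up 52.8% and 54.3% in female controls against 38.1% and 37.5% in female CKO libraries, and 51.6% and 52.4% against 29.6% and 27.6% in males. The share of Ifitm1 stayed between 35.8% and 41.7% in all 8 libraries.

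The ratio of Ifitm3 to Ifitm2 compares neighbours within a library and so does not depend on its scaling. It was 0.216 and 0.153 in female controls against 0.665 and 0.657 in female CKO libraries. In males it was 0.148 and 0.159 against 1.07 and 1.11. The ratio of Ifitm1 to Ifitm2 was 0.678 and 0.688 in female controls and 0.957 and 1.01 in female CKO libraries, and in males it was 0.791 and 0.752 against 1.30 and 1.51. These ratios use the same contrast as the choice of the genes and carry no test.

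**Figure D2:**
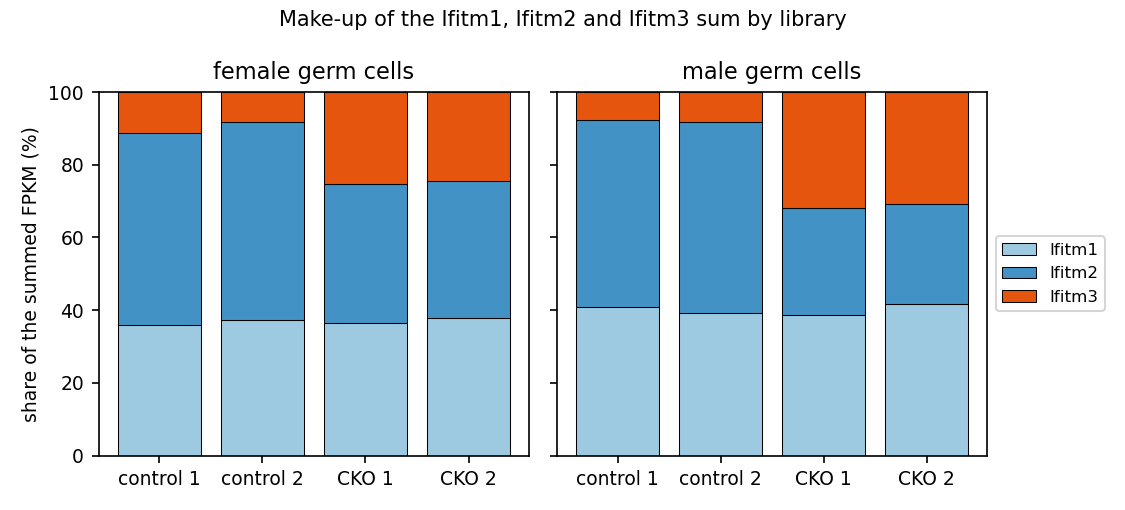
Share (%) of Ifitm1, Ifitm2 and Ifitm3 in their summed FPKM for each library of female (left) and male (right) germ cells. The share of Ifitm3 (top segment) is between 7.62% and 11.4% in the controls and between 24.6% and 31.8% in the Snf5 CKO libraries.

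The rest of the Ifitm family was at far lower levels. Ifitm5, the member known from bone-forming cells, was at 0.0913 and 0 FPKM in female controls and at 5.68 and 6.16 FPKM in female CKO libraries, and it rose with a log2 difference of 2.73 (adjusted p = 0.000122, limma). In males it was at 0.589 and 1.76 against 3.19 and 4.20 FPKM, a log2 difference of 1.16 (adjusted p = 0.0359, limma), and this call was lost without control replicate 1 (0.76), without CKO replicate 2 and with a pseudocount of 0.1. Ifitm6, next to Ifitm3, was listed at 0 in both female controls and was at 0.664 and 1.02 FPKM in the female CKO libraries, with 0.249 and 0.296 against 0.852 and 1.06 FPKM in males. Its mean was too low for the fit in both sexes. Ifitm10, which lies over 1 Mb away, was at 1.40 and 2.05 against 2.41 and 2.03 FPKM in females, which was not called. In males it fell from 1.74 and 3.82 to 0.338 and 0.544 FPKM, a log2 difference of -1.34 (adjusted p = 0.0218, limma), and the call was lost without control replicate 2. Another male row of Ifitm10 was also lower (-1.94). Ifitm7, on chromosome 16, did not exceed 0.429 FPKM in any library.

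Genes beside the cluster were examined to see how far the difference reached along the chromosome. Of 39 named female rows within 300 kb of the members, 23 passed the filter, 7 were called higher and 3 lower in CKO cells. Of all tested female rows 17.2% were called higher and 21.8% lower. In males 23 of 38 rows passed, 6 were called higher and 0 lower, where 14.3% and 17.5% of all tested rows were called. The higher rows include the family member Ifitm5 in both sexes and 2 rows of B4galnt4 in females. A call required an adjusted p under 0.05 (limma, Benjamini-Hochberg over all tested rows) and an absolute log2 difference of at least 1. With a filter at 5 FPKM instead, 2 male rows were called higher. With each library rescaled to the same sum the male counts were 6 higher and 2 lower, and under median-of-ratios rescaling the female counts were 9 higher and 2 lower.

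The nearest gene outside the family, Athl1 (a glycosidase that acts on hydroxylysine-linked sugars of collagen), lies 7.2 kb from the members. It was at 1.72 and 2.36 FPKM in female controls and at 24.9 and 23.8 FPKM in female CKO libraries, with a log2 difference of 3.07 (SE 0.20, adjusted p = 0.00011). In males it was at 5.06 and 4.37 against 38.0 and 34.1 FPKM, with a log2 difference of 2.70 (SE 0.18, adjusted p = 0.0022). Athl1 rose in both sexes, and unlike the members it was not higher in replicate 2 of the CKO groups.

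On the other side of the cluster B4galnt4, a glycosyltransferase, rose in both sexes. Its main row was at 4.17 and 2.94 against 10.3 and 8.30 FPKM in females and at 1.52 and 1.16 against 6.72 and 4.76 FPKM in males, and the female call was lost without control replicate 2. Sigirr, an inhibitor of interleukin receptor signalling, and Ano9, an anoctamin of the membrane, also rose in males, with log2 differences of 1.78 and 1.80. In females these genes were merged in a row with a log2 difference of 1.11, while a separate female row of Ano9 was at 1.69 and 0.806 against 0.246 and 0.171 FPKM and was too low for the fit. The merged call was lost without control replicate 1 and without CKO replicate 2.

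The 3 lower neighbours lay further off and were all in females. Lmntd2 was at 64.5 and 53.8 against 6.72 and 8.35 FPKM, a log2 difference of -2.82. Syce1, a protein of the synaptonemal complex, was at 397 and 410 against 134 and 152 FPKM, and Lrrc56 was at 13.3 and 9.93 against 5.22 and 4.60 FPKM. The female Lrrc56 call was lost under median-of-ratios rescaling and without control replicate 1, and in males Lrrc56 was higher (1.74). Sct, which encodes the hormone secretin, lay 263.1 kb from the members and was at 17.7 and 48.9 against 210 and 341 FPKM in females, where it rose with a log2 difference of 3.14, and at 2.22 and 2.07 against 0.5 and 2.80 FPKM in males, which was not called. The dopamine receptor gene Drd4 rose in females (1.22) and was under the filter in males.

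Widely used genes within 100 kb did not pass the rule. Psmd13, a subunit of the proteasome, was at 96.4 and 91.6 against 97.2 and 98.4 FPKM in females and at 196 and 215 against 106 and 112 FPKM in males, a male log2 difference of -0.91. Sirt3, a mitochondrial deacetylase, had log2 differences of -0.14 in females and 0.94 in males. Ric8, which assists the folding of G protein subunits, had 0.51 and -0.73, and Bet1l, which acts in vesicle transport, had -0.10 and -0.01. Cox8b was listed at 0 in all 4 female libraries and in 3 of the male libraries. Nlrp6, BC024386 and Pkp3 stayed at or under 1 FPKM in every library.

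**Figure D3:**
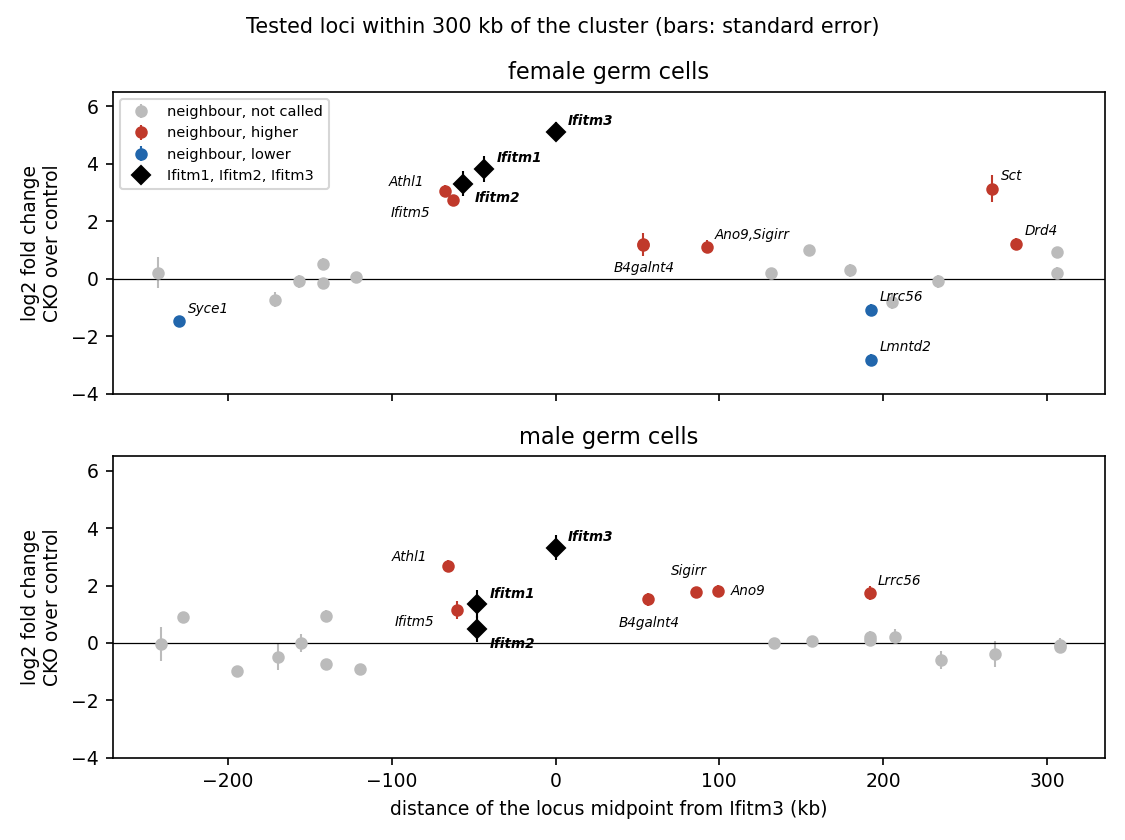
Log2 fold change (Snf5 CKO over control, log2(FPKM + 1) scale, bars are standard errors) of tested rows within 300 kb against the distance of their midpoint from Ifitm3 in kb, for females (top) and males (bottom). Ifitm1, Ifitm2 and Ifitm3 are black diamonds, and called neighbours are red (higher, 7 in females and 6 in males) or blue (lower, 3 in females and 0 in males).

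The interferon pathway was described because the Ifitm genes are among its targets. The list held 97 genes, of which 40 passed the filter in females and 50 in males. In females 13 were called higher and 9 lower, against 17.2% and 21.8% of all tested rows, and in males 10 were higher and 9 lower, against 14.3% and 17.5%. With each library rescaled to the same sum the male counts were 6 higher and 10 lower, under median-of-ratios rescaling 12 higher and 6 lower, and without control replicate 1 they were 9 higher and 4 lower. In females the filter at 5 FPKM gave 7 higher and 8 lower. No direction is therefore given for the list in either sex. Counts, not a test of the list, are given.

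The ligands were close to absent. Of 9 interferon genes 7 were listed at 0 in all 4 female libraries and 7 in all 4 male libraries, and all 9 were at 0 in the CKO libraries of both sexes. The highest value was 0.302 FPKM, for Ifne in female control replicate 1.

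The receptor chains moved in both directions. In females Ifngr2 rose from 1.05 and 1.07 to 7.65 and 6.21 FPKM and Ifnar2 from 0.681 and 0.475 to 4.10 and 4.72 FPKM, while Ifnar1 fell from 52.3 and 48.6 to 18.8 and 16.0 FPKM. Ifnar1 and Ifnar2 together form the receptor of type I interferons. Ifngr1 (-0.54) and Il10rb (0.85) did not pass in females, and Ifnlr1 was under the filter. In males Il10rb rose by 1.49 on the log2 scale, and the log2 differences of Ifnar1 (-0.68), Ifnar2 (0.19), Ifngr1 (-0.04), Ifngr2 (0.31) and Ifnlr1 (-0.78) did not pass.

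Of the signal transducers Irf9, the DNA-binding partner of the STATs, was higher in both sexes. In females Irf9 was at 1.72 and 1.73 against 7.06 and 5.24 FPKM, and in males a row that merges Irf9 with Rnf31 was at 7.49 and 5.46 against 16.2 and 14.1 FPKM. The male Irf9 call was lost without control replicate 2 and with each library rescaled to the same sum. The kinase Jak1 fell in both sexes (-1.30 and -1.19, the latter lost without control replicate 1), and Tyk2 fell in males (-1.02) with 0.36 in females. The male Tyk2 call was lost without control replicate 1, without CKO replicate 2 and under median-of-ratios rescaling. Jak2 (-0.59 and -0.73) and Stat2 (0.53 and -0.30) did not pass in either sex.

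Among 6 inhibitors, the phosphatase Ptpn6 rose in females, from 4.06 and 5.47 to 30.4 and 34.9 FPKM, and Ptpn2 fell with a log2 difference of -1.41. In males Socs1, which binds JAK kinases, rose with a log2 difference of 1.33, a call lost with each library rescaled to the same sum, and Pias1 fell (-1.03), a call lost under median-of-ratios rescaling, without control replicate 1 and without CKO replicate 2. Female Socs1 (0.81) and Pias1 (-0.82) and male Ptpn6 (-0.29) and Ptpn2 (0.59) did not pass, and Socs3 and Usp18 were under the filter in both sexes. Of 13 genes that sense foreign nucleic acids or act downstream of the sensors, 4 passed the filter in each sex. Ddx58, which encodes the RNA sensor RIG-I, rose in females from 1.13 and 0.738 to 16.6 and 12.6 FPKM and was at 41.8 and 26.8 against 34.2 and 23.5 FPKM in males. Tbk1, a kinase downstream of the sensors, fell in females (-1.47), and in males a row that merges it with Xpot was higher (1.03), a call lost under 6 of the alternatives, including without control replicate 2 (0.74) and without CKO replicate 1 (0.71).

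Of 65 other interferon targets 25 passed the filter in females, with 10 called higher and 5 lower, and 34 in males, with 7 higher and 6 lower. Irf9, Stat2 and Ddx58 are also counted here. Bst2, which tethers budding viruses to the cell, was higher in both sexes, at 9.07 and 17.1 against 250 and 329 FPKM in females and at 86.3 and 142 against 266 and 425 FPKM in males. The male Bst2 call was lost without control replicate 1. Trim25, which acts with RIG-I, was higher in both sexes, with log2 differences of 1.78 and 1.26, and Irf1 rose in females (1.95).

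Other targets moved the opposite way to the members. The class I histocompatibility gene H2-K1 fell in females from 878 and 842 to 44.6 and 68.7 FPKM, and the row of H2-D1 and H2-L from 698 and 684 to 35.0 and 54.5 FPKM. In males the row of H2-K1 and H2-K2 was higher, at 1.92 and 2.08 against 7.0 and 10.1 FPKM. The female row holds H2-K1 alone and the male row merges it with H2-K2, so the values of the sexes do not cover the same genes. Sharing of reads between these genes was not tested. Parp12 was lower in females (-1.92) and higher in males (1.46). In males Irgm1 (1.52) was also higher, and Ifi27 (-1.77), Igtp (-1.59), Oasl2 (-1.51) and Parp14 (-1.16) were lower, the last lost without control replicate 1.

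Of the 65 targets 40 were under the filter in females and 30 in males. Of these Ifit1, Mx1 and Rsad2, chosen after their values were seen, did not exceed 0.04 FPKM in any female library or 0.151 FPKM in any male library. Isg15, chosen in the same way and tested in males only, was at 0, 0.167, 0.664 and 0.297 FPKM in the female controls and CKO libraries in turn, and in males at 23.5 and 37.4 against 19.1 and 32.1 FPKM, with overlapping groups.

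**Figure D4:**
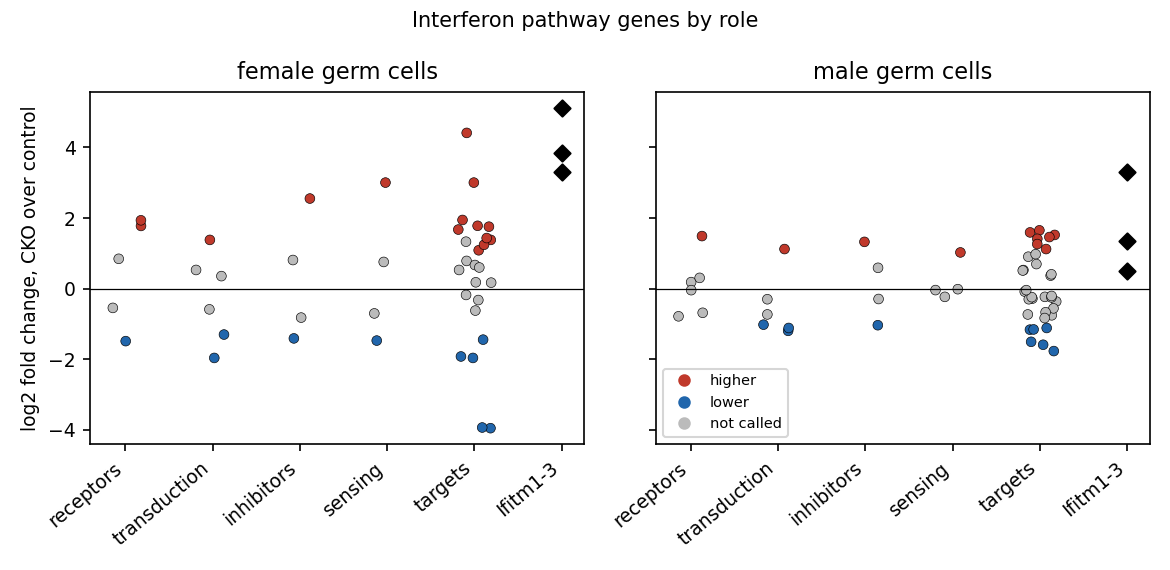
Log2 fold change (Snf5 CKO over control, log2(FPKM + 1) scale) of tested interferon pathway genes by role in female (left) and male (right) germ cells, red where called higher and blue where called lower, beside Ifitm1, Ifitm2 and Ifitm3 (black diamonds). The targets hold 10 higher and 5 lower genes in females and 7 higher and 6 lower in males, on both sides of 0, and ligands are not drawn because none passed the filter.

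The genes whose pattern was most like that of Ifitm3 were found by the distance over the 8 libraries on the log2 scale, with each gene centred within its table, among 11087 genes tested in both sexes. Among the 5 nearest were Cldn3 (a claudin of tight junctions, distance 0.862), Abhd11os (a transcript opposite Abhd11, 0.998), Gjb5 (a connexin, 1.19) and Dhrs7 (a dehydrogenase, 1.21). Cldn3 was at 0.213 and 0.265 against 34.7 and 50.3 FPKM in females and at 1.43 and 1.87 against 31.0 and 41.7 FPKM in males. Dhrs7 was at 2.05 and 2.19 against 65.3 and 67.3 FPKM in females and at 8.34 and 9.36 against 86.7 and 90.7 FPKM in males. The strand of the reads is not stated, so reads of Abhd11os cannot be told from those of overlapping genes. Ifitm1 was at rank 62 by this distance, Athl1 at rank 65, Ifitm5 at rank 224 and Ifitm2 at rank 247. The distance uses the contrast on which the cluster was chosen, so the ranks carry no test.

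A list of 11 early germ cell genes was measured in the same libraries. It holds markers of primordial germ cells and 4 genes of BMP signalling (Bmpr1a, Smad1, Smad4 and Smad5), which acts on their precursors and is used widely. In female CKO cells 7 were higher and 1 lower, where 17.2% and 21.8% of all tested rows were called, and in male CKO cells 6 were higher and 1 lower, against 14.3% and 17.5%. Dppa3, also called Stella, was at 41.2 and 61.3 against 1406 and 1633 FPKM in females and at 1754 and 2025 against 2276 and 2979 FPKM in males, where it was not called. Tfap2c, a transcription factor of primordial germ cells, rose in both sexes with log2 differences of 4.67 and 3.03, as did Prdm14 with 3.13 and 1.81. Alpl, into which the Cre is knocked, rose in females (2.59) and had 0.61 in males, which was not called. Smad5 was the gene that fell in females (-1.33), and Bmpr1a (1.27) and Smad1 (1.29) were among the 6 that rose in males. Nanos3 rose in females (2.82) and fell in males (-2.16), and Kit rose in both sexes (2.02 and 1.70).

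Since somatic cells of the gonad also express Ifitm genes, their markers were examined in the sorted cells. In bulk samples, fewer cells of a type and less RNA per cell cannot be told apart. A call in a list is not read as the presence of its cell type. The counts below stand beside 17.2% higher and 21.8% lower among all tested rows in females and 14.3% and 17.5% in males. In males 9 of 9 tested Sertoli markers were higher in CKO libraries, and the 10 genes of the list summed to 107 and 87.3 FPKM in controls and to 421 and 627 FPKM in CKO libraries. Amh, which encodes anti-Müllerian hormone, was at 17.3 and 16.5 against 69.7 and 120 FPKM and Sox9 at 2.98 and 2.51 against 11.1 and 11.4 FPKM. In females 1 of 4 tested Sertoli markers was higher, the sum was 10.3 and 13.4 against 20.9 and 20.4 FPKM, and Fshr was listed at 0 in all 4 libraries.

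Of the pre-granulosa markers 4 of 8 were higher and 1 lower in females, and they summed to 12.0 and 14.9 against 34.9 and 32.6 FPKM. In males 2 of 4 were higher (Amhr2 and Kitl) and 1 lower (Rspo1), with 15.5 and 15.2 against 33.9 and 37.0 FPKM. Amhr2, a receptor of anti-Müllerian hormone, was among the higher ones in both sexes (1.40 and 2.54). Foxl2, the defining factor of these cells, was at 0.328 and 1.13 against 1.67 and 2.07 FPKM in females and at or under 0.105 FPKM in males. Leydig markers summed to 12.8 and 11.8 against 26.0 and 23.9 FPKM in females, with 1 of 4 higher. In males they summed to 103 and 72.3 against 59.7 and 57.1 FPKM. There 2 of 8 were higher (Hsd17b3 and Nr5a1) and 3 lower, among them Cyp17a1 and Cyp11a1. The only female call was a row that merges Insl3 with Jak3, which was among the lower ones in males. Its value cannot be assigned to either gene.

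Endothelial markers summed to 8.20 and 7.85 against 27.6 and 25.6 FPKM in females, where 1 of 2 was higher. That gene, Pecam1, is also used by germ cells, and the defining endothelial gene Cdh5 was at or under 0.131 FPKM. In males they summed to 26.7 and 31.0 against 22.2 and 24.9 FPKM, with 2 of 4 lower. Stroma markers summed to 15.0 and 7.59 against 5.98 and 8.20 FPKM in females, with 1 of 3 lower, and to 24.3 and 14.2 against 9.48 and 10.5 FPKM in males, with 1 of 5 higher and 3 lower. Blood markers summed to 20.7 and 96.9 against 8.14 and 69.5 FPKM in females, with 0 of 2 called, and to 69.0 and 116 against 61.0 and 74.8 FPKM in males, with 1 of 7 higher. The 3 Ifitm genes together were at 144 and 329 FPKM in female controls, 2371 and 4009 in female CKO, 1502 and 2498 in male controls and 3640 and 6736 FPKM in male CKO libraries. The share of these values that comes from somatic cells cannot be read from the sums of marker lists. The study lists near-complete sort purities for the female samples and somewhat lower ones for most male samples. Male CKO replicate 2, which had the highest sum of Sertoli markers, was listed as the purest male sample. How the listed purities relate to the marker sums was not tested. Ptprc, a defining gene of blood cells, was at or under 0.162 FPKM in all 8 libraries, whereas in males Cd68 was between 3.91 and 7.58 FPKM, Fcer1g between 0.897 and 11.3 FPKM, and Lyz2 rose from 0.248 and 0 to 1.75 and 2.07 FPKM. The part of the somatic markers in the values of the members was not tested.

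**Figure D5:**
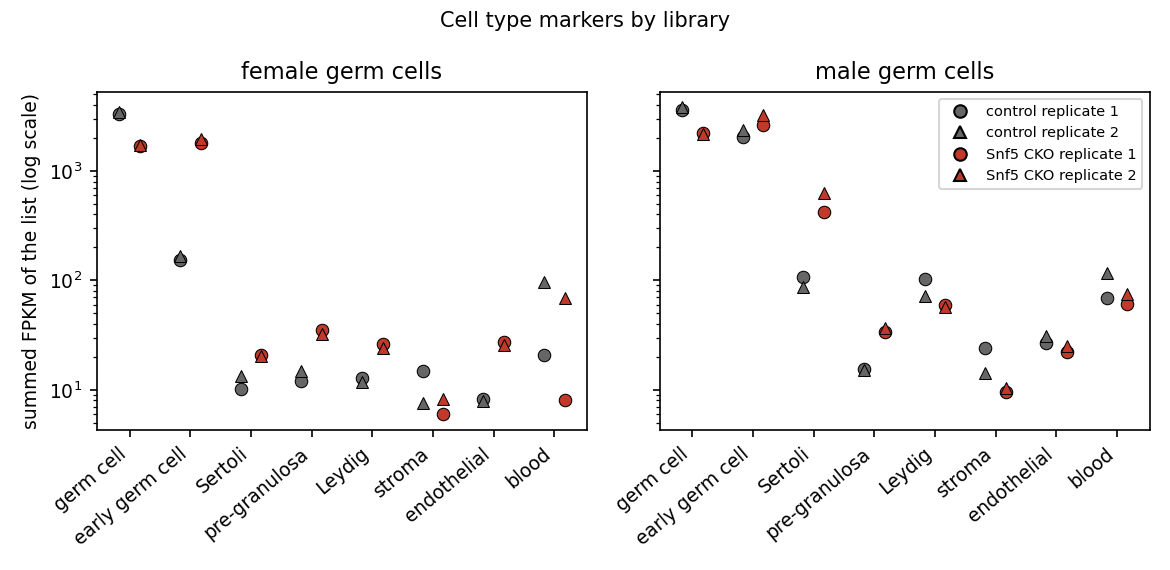
Summed FPKM (log axis) of each marker list in each library of female (left) and male (right) germ cells, with controls in grey, Snf5 CKO in red, replicate 1 as circles and replicate 2 as triangles. Sertoli markers are at 107 and 87.3 FPKM in male controls against 421 and 627 FPKM in male CKO, and early germ cell genes at 153 and 168 FPKM in female controls against 1784 and 1952 FPKM in female CKO.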

How the data were processed

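Sorted E15.5 germ cells were profiled by RNA-Seq after SMART-Seq amplification, with 2 libraries per sex and genotype, grouped by their titles. The authors mapped paired reads to mm10 with Tophat and deposited FPKM values from Cufflinks with confidence bounds, 1 table per sex. Loci start at 0-based positions, so 1 was added. The depth is unknown.

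The sexes were fitted separately with limma 3.58.1 (R 4.3.3) on log2(FPKM + 1), for named rows with a mean of at least 1 FPKM (11642 female and 12368 male rows), without a replicate term. A row that merges several genes has 1 value for all of them. Fold changes on this scale understate those of low genes. Of several rows of a gene, that of highest mean FPKM was used. Calls needed an adjusted p under 0.05 and a log2 fold change of 1 or more in either direction. The fit was also run on simulated data with 200 changed genes and independent errors of fixed size. That run held no shift shared by replicates, so it does not measure the error rate in these data. The deviation of replicate 2 from replicate 1 correlated between control and CKO at 0.504 in females and 0.595 in males. Whether the replicate numbers mark batches is not given in the sample titles. Fits with a library left out also had no replicate term, so their values and lost calls can take in the shift between replicates.

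Named were all Ifitm genes, all named rows within 100 kb, the lists of up to 6 genes, at most 4 called genes per direction and list, and the 5 genes nearest to Ifitm3. Genes outside this rule carry a remark or are markers. The members and lists were chosen with earlier results of these data known. Some genes that this rule names are not reported here, and protein sequences are not analysed here. Figures used matplotlib 3.10.9 in Python 3.11.15.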

Additional observations from a re-analysis of the deposited data

Results flagged for a closer look

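The following genes had CKO libraries on opposite sides of the controls in the 2 sexes, in every library. This difference between the sexes was not tested. On the log2 scale, Dnd1 was at 4.39 in females and -1.78 in males, Nanos3 at 2.82 and -2.16, and both encode RNA-binding proteins of germ cells. H2-K1 was at -3.93 in females, and the male row that merges it with H2-K2 was at 1.65. Tbk1 was at -1.47 in females, and the male row that merges it with Xpot was at 1.03, a call lost under several alternatives. For these merged rows the sexes do not cover the same genes. Parp12 was at -1.92 and 1.46 and Ptpn2 at -1.41 and 0.59. H2-K1, Tbk1, Parp12 and Ptpn2 are in the interferon list. Beside the cluster, Syce1 (a protein of the synaptonemal complex) was at -1.49 and 0.90, Lrrc56 at -1.08 and 1.74, Psmd13 at 0.0572 and -0.91 and Ric8 at 0.51 and -0.73. Among the somatic markers, Rspo1 was at 1.63 and -1.20, and the row of Insl3 and Jak3 at 1.18 and -1.66.

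Some rows without a gene name within 100 kb of the cluster, which no comparison used, had both CKO libraries above both controls, and others did not. In females these were 140957499 to 140958958 (0.296 against 0.0373 FPKM) and 140963172 to 140963800 (0.926 FPKM, with controls listed at 0), both between Ifitm2 and Ifitm1. In males they were a row at 140954839 to 140969828 (0.441 against 0.0434 FPKM), a row at 141015718 to 141032841 around Ifitm6 (1.37 FPKM, with controls listed at 0), rows at 141051611 to 141054687 (0.384 against 0.168 and 0.524 against 0.0417 FPKM) and a row at 141058372 to 141060851 (3.53 against 2.22 FPKM). Each is a small value beside those of the members.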

How the results depend on the processing

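No member and no named gene that was called changed its direction under any of the 11 alternatives, which were omitting the filter, a filter at 5 FPKM, a pseudocount of 0.1, rescaling to a common sum, median-of-ratios rescaling, no trend, the replicate block and each of 4 libraries left out. The member log2 differences ranged, with each library left out, from 3.21 to 4.45 (Ifitm1), 2.70 to 3.92 (Ifitm2) and 4.76 to 5.48 (Ifitm3) in females and from 0.86 to 1.85, 0.10 to 0.88 and 2.89 to 3.74 in males. The replicate block left these values as they were and gave 4574 called rows in females against 4545 without it and 4099 against 3932 in males, and it changed no call of a named gene, while the markers of other cell types went from 7 higher and 2 lower to 7 and 4 in females and from 15 and 9 to 15 and 12 in males. Calls among the markers of other cell types in females went from 9 to 15 with a pseudocount of 0.1 and to 3 with the filter at 5 FPKM. That filter, which tests fewer rows, also lowered the male calls from 3932 to 2621 over all rows, from 6 to 2 beside the cluster and from 24 to 14 among the markers. Rescaling to a common sum gave 1349 higher and 2501 lower male rows, and median-of-ratios gave 2129 higher and 1805 lower, against 1772 and 2160, and in females 2328 and 2098 against 2002 and 2543. The female interferon list went from 13 higher and 9 lower to 7 and 8 with the filter at 5 FPKM, and its median log2 difference from 0.57 to -0.54. The median log2 difference of all tested rows, -0.137 in females and -0.0733 in males, became 0.018 and 0.071 under median-of-ratios and -0.122 and -0.244 under a common sum, and every member kept its sign, with male Ifitm2 at 0.66 and 0.30. Over 119 named results and 1272 fits, 1221 kept their status as called or not called, 38 lost a call and 13 gained one. Results that the filter at 5 FPKM removed are not among these fits. With 2 libraries a group and no counts, small differences cannot be resolved.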
